A study of Mus musculus with 9 samples.

Results

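The 10 genes described here are the parts and readouts of the Hippo pathway: the coactivators Yap1 (YAP) and Wwtr1 (TAZ), their DNA-binding partners Tead1 and Tead4, the kinases Lats1 and Lats2, and the target genes Ccn1, Ccn2, Ajuba and Amotl2. They were taken by name from a table of 36121 genes, in which all 10 were found, and all 10 passed the filter on low values (a mean normalized TPM of 1 or more across libraries) that left 15014 genes for testing. The table holds RNA-seq of whole sciatic nerve from C57BL6 mice aged 21 days, with 3 mice (2 females and 1 male) in each genotype. The cKO mice carried Cnp-Cre and were Tardbp fl/fl, the cHet mice carried Cnp-Cre and were Tardbp fl/+, and the control mice were Tardbp fl/fl without Cre, so that a floxed allele was shared by all groups. Tardbp encodes TDP-43, an RNA-binding protein, and Cnp-Cre drives recombination in Schwann cells and oligodendrocytes, of which the sciatic nerve holds the Schwann cells, so that other cells of the nerve are not its target. Values are normalized TPM, a unit of transcript abundance that the authors scaled further between libraries, which are per length and so allow levels to be compared between genes.

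In the Hippo pathway the kinases MST1 and MST2 (Stk4 and Stk3) with their partner Sav1 activate the kinases LATS1 and LATS2, which phosphorylate YAP and TAZ and keep them out of the nucleus. Unphosphorylated YAP and TAZ enter the nucleus, bind TEAD factors on DNA and switch on genes such as Ccn1, Ccn2 and Amotl2, some of which feed back on the pathway. In Schwann cells, YAP and TAZ with TEAD1 are known to be needed for the sorting of axons and for myelination. RNA levels show how much message each part has and not where its protein lies or whether it is phosphorylated.

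The pathway writes to DNA through TEAD factors, which bind the core GGAATG, so the promoters that carry these letters are shown first. A promoter of 300 bases, 250 before and 50 after the most upstream start in RefSeq (GRCm38.p6), was found for 7 of the 10 genes, and GGAATG or its reverse complement CATTCC stood in 6 of these 7. In all 27017 genes with such a promoter the share was 14.7%. The stretches below end at the latest at the start site, run 5′ to 3′ on the strand of the gene, and have the matched letters in capitals.
Yap1: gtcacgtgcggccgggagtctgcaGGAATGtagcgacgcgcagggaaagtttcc
Wwtr1: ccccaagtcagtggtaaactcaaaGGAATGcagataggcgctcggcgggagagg
Ccn1: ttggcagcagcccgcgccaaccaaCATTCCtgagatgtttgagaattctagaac
Ajuba: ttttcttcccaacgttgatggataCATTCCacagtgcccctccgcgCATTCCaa
Amotl2: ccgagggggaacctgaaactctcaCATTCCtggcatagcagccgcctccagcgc
The match began 141 bases before the start of Yap1 (chr9:8004708-8004761, minus strand), 136 before that of Wwtr1 (chr3:57576017-57576070, minus strand), 103 before that of Ccn1 (chr3:145650059-145650112, minus strand) and 65 before that of Amotl2 (chr9:102717715-102717768, plus strand). The Ajuba stretch (chr14:54577818-54577871, minus strand) held 2 matches, which began 186 and 164 bases before its start. Lats2 had its single match just past its start site, Lats1 had none, and Ccn2, Tead1 and Tead4 had no promoter in the table used. For Amotl2 and Lats2 the RefSeq start used lies inside the GENCODE gene span given below, so these annotations place the start differently. A match of 6 letters is a description of the sequence and not a binding site.

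The genotypes were checked on Tardbp itself before the pathway was read. Tardbp stood at 103, 94.2 and 103 in the cKO nerves, 177, 179 and 186 in the cHet nerves and 185, 194 and 217 in the control nerves, so that every cKO nerve was below every other nerve (cKO against control, log2 fold change -0.98, limma adjusted p = 0.00219). Cnp, the locus that carries the Cre, was at 617 ± 160.4 in the cKO, 764 ± 109.6 in the cHet and 1379 ± 283 in the control (SD, n = 3 each). Groups follow the sample titles. The genotype field of 3 libraries differs from the title: 2 titled cKO (mice ID-2744 and ID-2747) are given there as Cnp-Cre; Tardbp fl/+, and 1 titled cHet (mouse ID-2742) as Tardbp fl/fl. By level these 3 libraries stood with the groups of their titles. Tardbp was 103 in ID-2744 and 94.2 in ID-2747, below every cHet nerve. Cnp was 640 in ID-2742, where the control nerves stood at 1168, 1267 and 1700. All 4 Schwann cell markers read here (Mbp, Sox10, S100b and Prx) were detected in every library, with a summed level of 18017 to 25200 in the cKO, 24706 to 34601 in the cHet and 25730 to 30643 in the control. Each cKO sum was below each control sum, while the cKO and cHet sums overlapped. The mean log2 level of these markers, which weighs them equally, overlapped between cKO and control. None of them had an adjusted p under 0.05 by limma. Skeletal muscle markers were high in cKO mouse ID-2748 and control mouse ID-2743, adipocyte markers in control mice ID-2743 and ID-2754, and neuron markers in cKO mouse ID-2748, cHet mouse ID-2742 and control mouse ID-2746.

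Of the 10 genes, Ccn1 rose in the cKO against the control and the other 9 did not pass the test. Ccn1 encodes a secreted matricellular protein of the CCN family and is a classical YAP/TAZ target. YAP, TAZ, Tead1, Tead4, Lats1, Ccn2 and Ajuba each had a cKO mean within 10% of the control mean, Lats2 stood higher and Amotl2 lower without passing the test. This 1 call among 10 genes compares with 235 calls among the 15014 genes tested, or 1.57% (limma, adjusted p under 0.05). In whole nerve, a difference in the number of cells of a type and a difference in RNA per cell cannot be told apart.

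**Figure D1:**
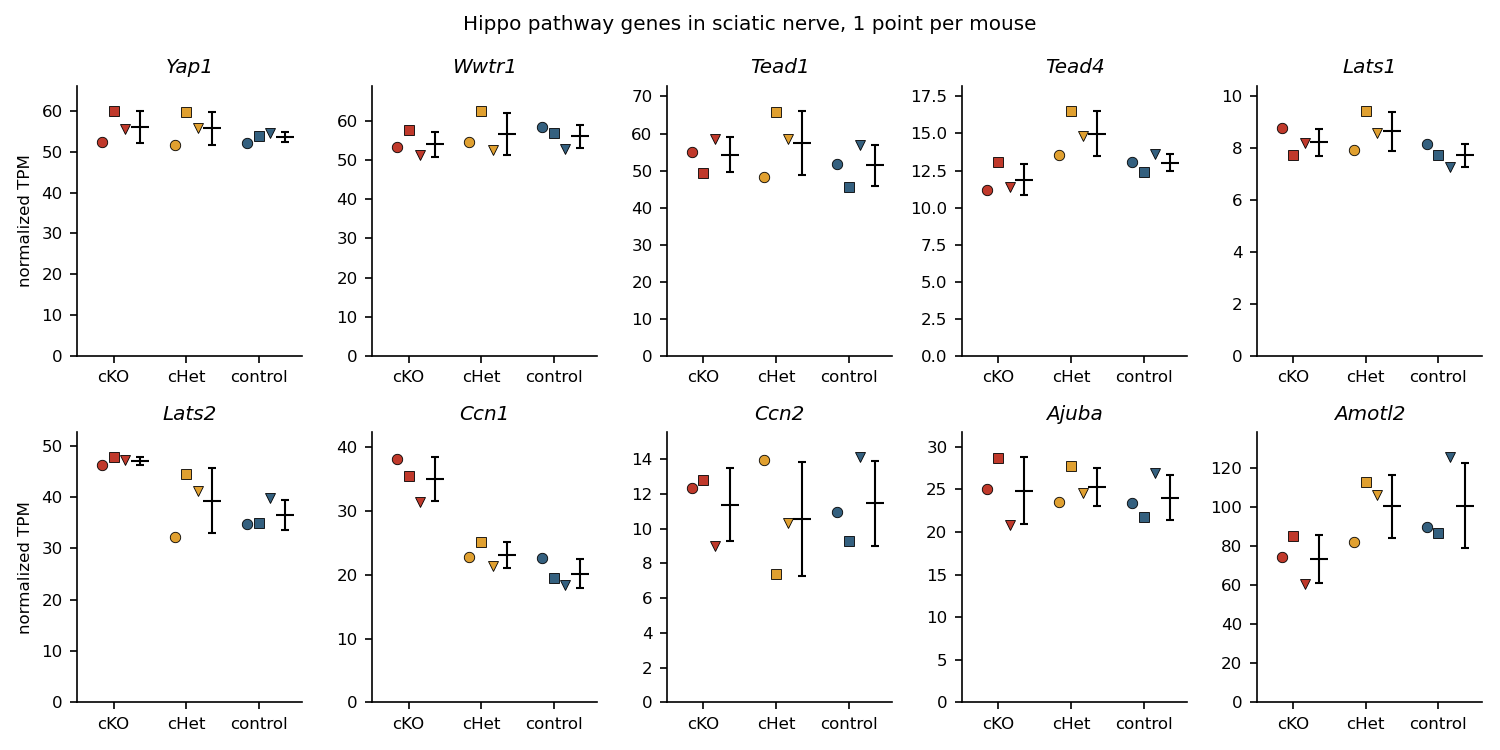
Normalized TPM (vertical axes, starting at 0) of the 10 genes in each sciatic nerve, with 1 point per mouse for cKO, cHet and control and the mean ± SD (n = 3) as a black bar to the right of each group. Ccn1 lies at 31.3 to 38.2 in the cKO, above all cHet and control nerves, while Yap1 and Wwtr1 stay between 51.3 and 62.7 in all 9 nerves.

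The coactivators were level across genotypes. Yap1 (ENSMUSG00000053110, chr9:7931999-8004596, minus strand; GRCm38, GENCODE M21, as for all positions that follow) stood at 52.5, 60.1 and 55.6 in the cKO nerves, 51.6, 59.8 and 55.7 in the cHet nerves and 52.2, 53.7 and 54.6 in the control nerves. The groups overlapped fully, and the highest of the 9 values was only 1.16 times the lowest. For cKO against control the log2 fold change was 0.063 with a 95% interval of -0.13 to 0.26 (limma adjusted p = 0.843), which bounds the cKO level between 0.911 and 1.20 times the control level on the log2(value + 0.5) scale. Wwtr1 (ENSMUSG00000027803, chr3:57455649-57575910, minus strand), which encodes TAZ, the paralogue of YAP, stood at 53.3, 57.6 and 51.3 in the cKO nerves, 54.7, 62.7 and 52.6 in the cHet nerves and 58.6, 56.9 and 52.8 in the control nerves. Here too the groups overlapped and the log2 fold change was -0.052 (95% interval -0.27 to 0.16, limma adjusted p = 0.890). The messages of YAP and TAZ were thus of nearly the same abundance per length, with means over the 9 nerves of 55.1 and 55.6. Both varied little between mice of one genotype: the within-group SD on the log2 scale was 0.085 for Yap1 and 0.10 for Wwtr1, and 4.57% and 8.43% of the tested genes had a smaller one.

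The TEAD factors, through which YAP and TAZ reach DNA, gave no call in the cKO against the control. Tead1 (ENSMUSG00000055320, chr7:112679318-112906807, plus strand) was the more abundant of the pair and stood at 55.0, 49.4 and 58.7 in the cKO nerves, 48.3, 65.7 and 58.4 in the cHet nerves and 51.7, 45.6 and 56.9 in the control nerves. Its groups overlapped (log2 fold change 0.081, 95% interval -0.23 to 0.39, limma adjusted p = 0.880). Tead4 (ENSMUSG00000030353, chr6:128224288-128300823, minus strand) stood at 11.2, 13.1 and 11.4 in the cKO nerves, 13.6, 16.5 and 14.8 in the cHet nerves and 13.0, 12.4 and 13.6 in the control nerves. The cHet nerves held the 2 highest Tead4 values, and the cKO nerves the 2 lowest. Against the control the cKO difference was -0.13 on the log2 scale (adjusted p = 0.713), and against the cHet, where no value of one group overlapped the other, it was -0.32 (95% interval -0.58 to -0.07, limma adjusted p = 0.228), so that neither passed the test.

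The LATS kinases phosphorylate YAP and TAZ, and Lats2 is itself a YAP/TAZ target through which the pathway limits its own output. Lats1 (ENSMUSG00000040021, chr10:7681214-7716460, plus strand) was the least abundant of the 10 genes, at 8.75, 7.72 and 8.19 in the cKO nerves, 7.92, 9.44 and 8.56 in the cHet nerves and 8.14, 7.72 and 7.27 in the control nerves. Its groups overlapped, and the log2 fold change of the cKO against the control was 0.087 (95% interval -0.18 to 0.35, limma adjusted p = 0.836). Lats2 (ENSMUSG00000021959, chr14:57689662-57758388, minus strand) was more abundant and stood at 46.3, 47.7 and 47.2 in the cKO nerves, 32.3, 44.5 and 41.1 in the cHet nerves and 34.8, 34.9 and 39.9 in the control nerves. Every cKO nerve lay above every cHet and every control nerve, and the cKO values were close together, with a mean of 47.1 ± 0.728 (SD, n = 3), while the cHet mean was 39.3 ± 6.31 and the control mean 36.5 ± 2.89. The log2 fold change of 0.36 against the control (standard error 0.12, 95% interval 0.08 to 0.65) was not called after adjustment over all genes (limma adjusted p = 0.241), nor was that of 0.27 against the cHet (adjusted p = 0.364).

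Ccn1 (ENSMUSG00000028195, chr3:145646976-145649981, minus strand) carried the largest change of the 10 genes. It stood at 38.2, 35.5 and 31.3 in the cKO nerves, 22.7, 25.2 and 21.3 in the cHet nerves and 22.7, 19.6 and 18.3 in the control nerves. All 3 cKO nerves were above all 6 other nerves, and the lowest cKO value, 31.3, was well above the highest of the rest, 25.2. The means were 35.0 ± 3.44 in the cKO, 23.1 ± 1.97 in the cHet and 20.2 ± 2.26 in the control (SD, n = 3 each), which puts the cKO at 173% of the control and at 152% of the cHet. The log2 fold change against the control was 0.78 (standard error 0.12, 95% interval 0.51 to 1.05) with an adjusted p of 0.0189 from limma. Against the cHet it was 0.59 (95% interval 0.32 to 0.86), just short of the threshold with an adjusted p of 0.0515 from limma. The cHet and control groups overlapped, with a log2 fold change of 0.19 (95% interval -0.08 to 0.46, limma adjusted p = 0.99998).

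The call of Ccn1 against the control depended on single libraries. Its direction held without any 1 library (log2 fold change 0.71 to 0.87), but the call was lost without cKO mouse ID-2744 (limma adjusted p = 0.0983), cKO mouse ID-2747 (0.0756), control mouse ID-2746 (0.0553) or control mouse ID-2754 (0.0642), and with groups taken from the genotype field, which leaves 1 cKO nerve, the log2 fold change was 0.58 (adjusted p = 0.997). The summed level of 7 immediate early genes, which dissection and handling of tissue can raise (Fos, Fosb, Junb, Egr1, Ier2, Atf3 and Nr4a1), was 179.9 to 225.4 in the cKO, 136.0 to 145.6 in the cHet and 135.3 to 178.3 in the control. Of these 7, Junb, an AP-1 subunit, passed the test at a log2 fold change of 1.29 against the control (limma adjusted p = 0.0272). The other 6 did not pass it, with Fos at 0.96, Egr1 at 0.58, Nr4a1 at 0.23, Ier2 at 0.19, Fosb at 0.073 and Atf3 at -0.20. Fos and Egr1 were, like Junb, higher in every cKO nerve than in every other nerve. The immediate early sum of each cKO nerve lay above that of each other nerve, though control mouse ID-2754 was close at 178.3. Within the control group that mouse had the lowest Ccn1, 18.3. The summed level of 5 markers of perineurial cells, which sheathe the nerve (Slc2a1, Cldn1, Krt19, Moxd1 and Tenm2), was 141.3 to 187.6 in the cKO, 93.0 to 205.7 in the cHet and 99.0 to 123.0 in the control. Each cKO nerve lay above each control nerve in this sum while the cHet nerves spanned the cKO range, all 5 markers were above 0 in every library, and none passed the test. Taken singly, each of the 5 overlapped between cKO and control. Their log2 fold changes were 0.29 for Slc2a1, 0.76 for Cldn1, 0.60 for Krt19, 0.66 for Tenm2 and -0.21 for Moxd1. The part of these gene groups in the rise of Ccn1 was not tested.

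The other 3 targets did not pass the test. Ccn2 (ENSMUSG00000019997, chr10:24595442-24598683, plus strand), also a secreted CCN protein and usually named beside Ccn1 as a YAP/TAZ target, stood at 12.3, 12.8 and 9.01 in the cKO nerves, 14.0, 7.40 and 10.3 in the cHet nerves and 11.0, 9.31 and 14.1 in the control nerves. The groups overlapped, and the log2 fold change of the cKO against the control was -0.0047 with a wide 95% interval of -0.57 to 0.56 (limma adjusted p = 0.997). Ccn2 was the most variable of the 10 genes, with a within-group SD of 0.34 on the log2 scale against a median of 0.21 over all tested genes. Ajuba (ENSMUSG00000022178, chr14:54567472-54577558, minus strand), a LIM protein that binds LATS kinases and holds back their activity, stood at 25.1, 28.7 and 20.8 in the cKO nerves, 23.5, 27.8 and 24.6 in the cHet nerves and 23.4, 21.7 and 26.9 in the control nerves. Its groups overlapped as well (log2 fold change 0.043, 95% interval -0.27 to 0.36, limma adjusted p = 0.946). The interval of Ajuba lay below that of Ccn1 without touching it, while that of Ccn2 reached above the lower end of the Ccn1 interval and the difference between genes was not tested.

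Amotl2 (ENSMUSG00000032531, chr9:102716672-102733418, plus strand), an angiomotin family protein that binds YAP at junctions and is also a target gene, was the most abundant of the 10 genes. It stood at 74.7, 85.1 and 60.7 in the cKO nerves, 82.3, 113 and 107 in the cHet nerves and 89.9, 87.0 and 126 in the control nerves. Every cKO nerve was below every control nerve, though cKO mouse ID-2747 at 85.1 and control mouse ID-2746 at 87.0 were close, and the cKO range overlapped that of the cHet. The means were 73.5 ± 12.2 in the cKO, 101 ± 16.1 in the cHet and 101 ± 21.6 in the control (SD, n = 3 each). The log2 fold change was -0.45 against the control (95% interval -0.88 to -0.02, limma adjusted p = 0.369) and -0.45 against the cHet (adjusted p = 0.319), and neither passed the test. The summed level of 6 pericyte and smooth muscle markers (Pdgfrb, Rgs5, Acta2, Myh11, Kcnj8 and Notch3) was 105.1 to 109.4 in the cKO, 124.0 to 163.8 in the cHet and 117.1 to 172.4 in the control, with each cKO nerve below each other nerve. Of these 6 taken singly, only Notch3 had this separation. For Acta2 and Myh11, cHet mouse ID-2745 and control mouse ID-2746 lay below all cKO nerves. Tagln, a gene of contractile cells given below, was higher in every cKO nerve than in every other nerve. The summed level of 6 endothelial markers (Pecam1, Cdh5, Kdr, Cldn5, Tek and Emcn) was 107.9 to 175.1 in the cKO, 150.1 to 178.1 in the cHet and 140.3 to 179.8 in the control, and these ranges overlapped. Of these endothelial markers taken singly, only Kdr was lower in every cKO nerve (7.79 to 9.26) than in every other nerve (10.5 to 13.8). Its log2 fold change was -0.48 against the control and -0.52 against the cHet (limma adjusted p = 0.150 and 0.110). None of these 12 markers passed the test, all were above 0 in every library, and their part in the level of Amotl2 was not tested.

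**Figure D2:**
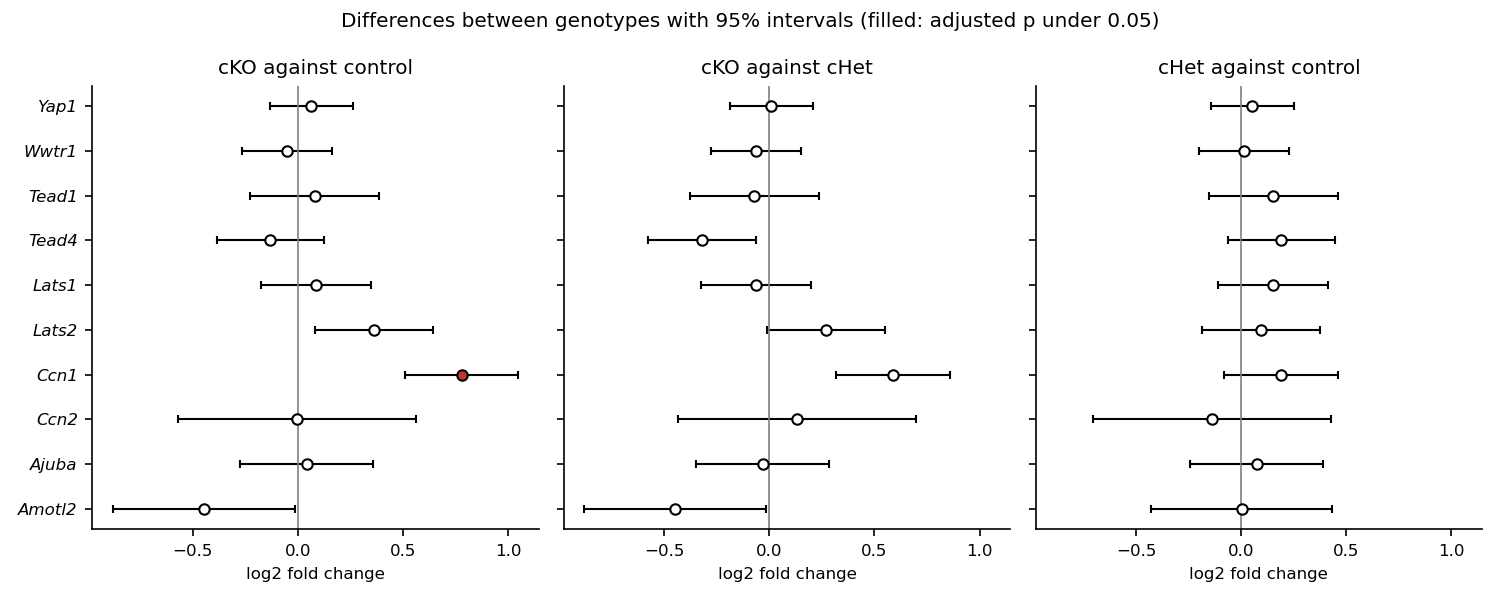
Log2 fold change (horizontal axes) of the 10 genes with its 95% interval from limma for cKO against control, cKO against cHet and cHet against control. Filled points passed an adjusted p of 0.05. The point of Ccn1 at 0.78 in the first panel is the one filled point, and the intervals of Yap1 and Wwtr1 are the narrowest.

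Over the 10 genes together, 2 were higher (Lats2 and Ccn1) and 1 lower (Amotl2) at an unadjusted p under 0.05 for cKO against control, where 12.9% of all tested genes were past it in either direction. The same 3 genes had groups without overlap, beside 17.4% of all tested genes. The median log2 fold change of the 10 was 0.05, against -0.02 over all tested genes. For cKO against cHet none of the 10 was called, beside 256 of 15014 genes or 1.71%. There 1 of the 10 (Ccn1) was higher and 2 (Tead4 and Amotl2) were lower at an unadjusted p under 0.05, beside 14.6% of all tested genes, and Ccn1, Lats2 and Tead4 had groups without overlap, beside 24.3%. Calls over all genes in this comparison ran 140 higher and 116 lower, and when the libraries were rescaled to the same sum they ran 90 higher and 202 lower, with the median of all genes moving to -0.12 against 0.02. With that scaling Ccn1 had a log2 fold change of 0.45 (limma adjusted p = 0.115), and Yap1 of -0.13, which lies beside the shifted median.

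The cHet nerves gave no call in the pathway against the control. The cHet mice differ from the control mice in Cnp-Cre as well as in the Tardbp alleles, and these cannot be told apart. For cHet against control none of the 10 genes passed the test, none had an unadjusted p under 0.05 and none had groups without overlap, while over all genes 0% passed the adjusted test, 2.72% had an unadjusted p under 0.05 and 7.1% had groups without overlap. The 10 log2 fold changes ran between -0.14 (Ccn2) and 0.19 (Ccn1), with a median of 0.08 against -0.03 over all genes. The comparisons of cKO with control and of cHet with control share the control nerves, and those with the cHet share the cHet nerves, so their values are not independent of each other.

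Ordered by mean level over the 9 nerves, the 10 genes ran from Amotl2 at 91.6 through Wwtr1 at 55.6, Yap1 at 55.1, Tead1 at 54.4, Lats2 at 41.0, Ccn1 at 26.1, Ajuba at 24.7, Tead4 at 13.3 and Ccn2 at 11.1 to Lats1 at 8.19. The ranges over the nerves overlapped between every pair of neighbours in this order except Ajuba and Tead4, so YAP, TAZ and Tead1 cannot be put in an order. By level, Amotl2 exceeded 89.7% of all tested genes, the coactivators and Tead1 between 81.4% and 81.8%, and Lats1 34.1%. Between the libraries, cHet mouse ID-2745 held the highest value of Wwtr1, Tead1, Tead4 and Lats1, and control mouse ID-2754 the highest of Ccn2 and Amotl2 and the lowest of Ccn1 and Lats1.

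The rest of the pathway was read from 7 further lists with 76 genes, 71 of them above the minimum mean. Of these 71, 1 rose and none fell in the cKO against the control, and 1 fell and none rose in the cKO against the cHet, where 1.57% and 1.71% of all tested genes were called in these comparisons. The share of the lists was therefore no higher than that of all genes. The gene that rose was F3 (ENSMUSG00000028128, chr3:121723537-121735048, plus strand), which encodes tissue factor, the initiator of the clotting cascade, and is counted among YAP/TAZ targets. It stood at 43.6, 46.4 and 42.8 in the cKO nerves, 32.4, 31.6 and 35.0 in the cHet nerves and 26.9, 29.7 and 24.2 in the control nerves. All 3 cKO nerves were above all other nerves and all 3 cHet nerves above all control nerves, and the means were 44.3 ± 1.90 in the cKO, 33.0 ± 1.79 in the cHet and 26.9 ± 2.72 in the control (SD, n = 3 each). The log2 fold change was 0.71 against the control (standard error 0.10, limma adjusted p = 0.0121), 0.42 against the cHet (adjusted p = 0.0784) and 0.29 for the cHet against the control (adjusted p = 0.99998). The call against the control was lost without cKO mouse ID-2744 (limma adjusted p = 0.0628), cKO mouse ID-2747 (0.0503) or cKO mouse ID-2748 (0.0535). The immediate early and perineurial sums given for Ccn1 stand beside F3 too, and their part in it was not tested. The promoter of F3 held neither GGAATG nor CATTCC. Of the 12 promoters found for the list of other YAP/TAZ targets, which includes F3, 4 held a match. Over the 7 further lists the share ran from 14.3% (STRIPAK phosphatase) to 66.7% (other TEAD and VGLL factors).

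The other targets on the list were mixed. Of 16 tested (among them Axl, Crim1, Myof, Nt5e, Ptpn14, Ccdc80 and Igfbp3), 9 had a log2 fold change above 0 and 7 below it in the cKO against the control, with a median of 0.07. Gadd45b, a stress-induced gene of growth arrest, stood at 22.7, 22.9 and 17.8 in the cKO nerves, 14.0, 10.2 and 9.63 in the cHet nerves and 16.6, 10.5 and 11.4 in the control nerves, with each cKO nerve above each cHet and control nerve (log2 fold change 0.72 and adjusted p = 0.166 against the control, 0.89 and 0.0827 against the cHet, from limma). Ankrd1, a target much used as a readout elsewhere, and Foxf2 lay below the minimum mean and were not tested, and Ankrd1 was at most 0.477 in any nerve.

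Among the other TEAD and VGLL factors, Tead2 fell in the cKO against the cHet. VGLL proteins bind TEAD factors in place of YAP and TAZ. Tead2 (ENSMUSG00000030796, chr7:45215753-45233644, plus strand) stood at 38.5, 43.7 and 40.2 in the cKO nerves, 70.0, 71.5 and 63.4 in the cHet nerves and 45.7, 42.8 and 63.1 in the control nerves. The cHet nerves were the highest, all 3 of them above every cKO and every control nerve, and the cKO nerves overlapped the control nerves. The log2 fold change was -0.74 against the cHet (standard error 0.14, limma adjusted p = 0.0461), -0.29 against the control (adjusted p = 0.466) and 0.45 for the cHet against the control (adjusted p = 0.99998). This call was lost when any 1 cKO or cHet library was left out (adjusted p 0.108 to 0.192 from limma) and without control mouse ID-2743 (0.0636). Tead2 shares exonic bases with Cd37, a gene on the other strand with a mean of 4.26, and no source used here states strand-specific counting. Vgll3 (ENSMUSG00000091243, chr16:65815257-65866368, plus strand) stood at 30.4, 28.0 and 26.2 in the cKO nerves, 46.7, 54.1 and 38.5 in the cHet nerves and 46.2, 41.7 and 36.9 in the control nerves, each cKO nerve below each other nerve, but missed the threshold at -0.70 against the cHet (adjusted p = 0.0508) and -0.55 against the control (limma adjusted p = 0.115). Vgll3 was called against the cHet in 5 of 26 alternative analyses. Tead3 stood at 66.7, 83.5 and 56.6 in the cKO nerves, 36.5, 46.8 and 53.3 in the cHet nerves and 33.4, 37.5 and 69.6 in the control nerves (cKO against control 0.61, limma adjusted p = 0.410), where control mouse ID-2754 lay among the cKO nerves, and Vgll4 stayed within 61.2 to 86.1 in all 9 nerves.

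**Figure D3:**
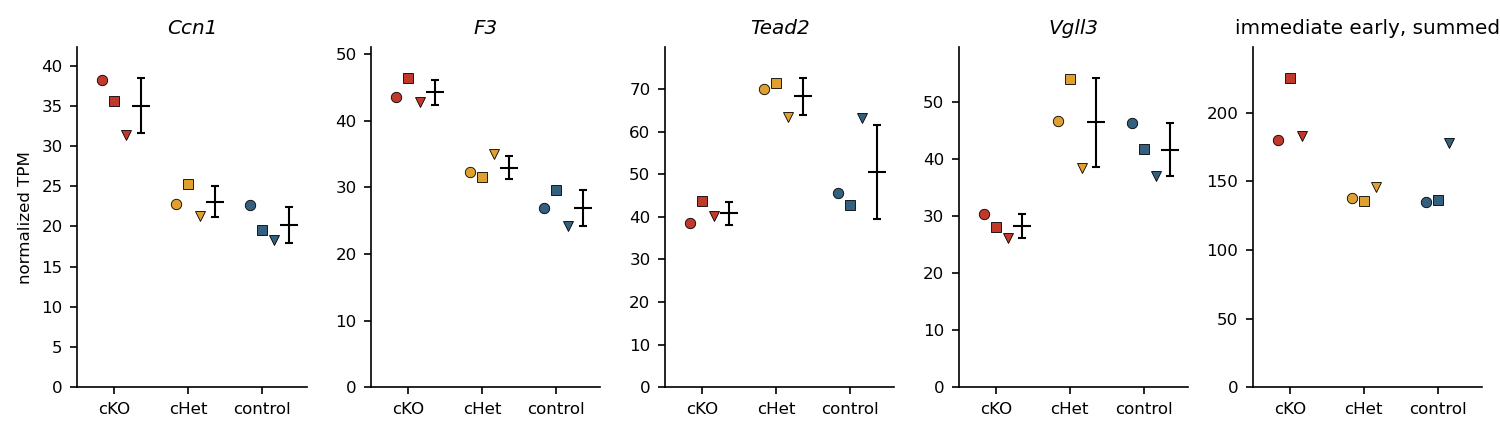
Normalized TPM (vertical axes, starting at 0) per nerve of Ccn1, F3, Tead2 and Vgll3, with 1 point per mouse and the mean ± SD (n = 3), and in the last panel the sum over 7 immediate early genes. Ccn1, F3 and the immediate early sum are highest in the cKO and Tead2 in the cHet. The sum of 1 control nerve, 178.3, is close to the lowest cKO sum, 179.9, and that control nerve has the lowest Ccn1 and F3. Nr4a1 alone makes up 110.9 of that control sum.

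Upstream of LATS the kinase cassette gave no call. Of its 12 genes (Stk3, Stk4, Sav1, Mob1a, Mob1b, Nf2, Wwc1, Wwc2, Taok1, Taok2, Taok3 and Map4k4) 3 had a log2 fold change above 0 and 9 below it in the cKO against the control, with a median of -0.15, and 1 above and 11 below against the cHet, with a median of -0.12. Stk4, which encodes MST1, stood at 17.4, 15.5 and 14.7 in the cKO nerves, 17.6, 21.0 and 20.2 in the cHet nerves and 19.6, 18.4 and 18.5 in the control nerves (log2 fold change -0.29, adjusted p = 0.245 against the cHet from limma). Nf2, the tumour suppressor Merlin that recruits LATS kinases to the membrane, stood at 39.7, 39.0 and 47.8 in the cKO nerves, 45.7, 49.6 and 44.3 in the cHet nerves and 47.4, 51.3 and 50.4 in the control nerves (log2 fold change -0.24, adjusted p = 0.355 against the control from limma). For Nf2, cKO mouse ID-2748 overlapped the control range, and for Stk4 every cKO nerve was below every control and cHet nerve.

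The regulators at junctions and of the LIM and angiomotin families gave no call among 17 genes, with medians of -0.03 against the control and -0.05 against the cHet. Amot, a relative of Amotl2, was low throughout and stood at 3.21, 3.49 and 4.96 in the cKO nerves, 5.69, 5.29 and 4.57 in the cHet nerves and 9.10, 5.21 and 4.99 in the control nerves (log2 fold change -0.63, adjusted p = 0.325 against the control from limma). Wtip, a LIM protein related to Ajuba, stood at 59.0, 74.4 and 54.8 in the cKO nerves, 42.9, 48.6 and 46.8 in the cHet nerves and 42.3, 44.4 and 58.9 in the control nerves (log2 fold change 0.43, adjusted p = 0.243 against the cHet from limma). Dlg1, a polarity scaffold, had a log2 fold change of -0.27 against the cHet (limma adjusted p = 0.285). The STRIPAK phosphatase, which opposes MST kinases, gave no call among 9 genes, whose log2 fold changes against the control lay between -0.16 and 0.22.

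Schwann cell genes tied to YAP and TAZ gave no call among 6 (Egr2, Sox10, Pmp22, Itga6, Itgb4 and Dag1). Egr2, the transcription factor that drives myelin genes, stood at 51.8, 45.7 and 58.2 in the cKO nerves, 27.1, 40.5 and 40.4 in the cHet nerves and 27.8, 31.3 and 36.3 in the control nerves. Every cKO nerve was above every other nerve, and the log2 fold change of 0.70 against the control did not pass the test (limma adjusted p = 0.115). The myelin protein gene Pmp22 gave a log2 difference of -0.16 (limma adjusted p = 0.896). The laminin receptor subunits Itga6 and Itgb4 had 0.024 and -0.15, and the dystroglycan gene Dag1 had 0.34, none of them called. Of the CCN relatives and serum response genes, Ccn3 stood at 64.2, 54.8 and 68.1 in the cKO nerves, 62.9, 64.0 and 71.7 in the cHet nerves and 69.6, 57.1 and 57.4 in the control nerves (log2 fold change 0.023, limma adjusted p = 0.968), and Tagln, an actin-binding protein of contractile cells, stood at 311, 419 and 284 in the cKO nerves, 241, 197 and 191 in the cHet nerves and 220.2, 180.3 and 227 in the control nerves. All cKO nerves exceeded all others in Tagln, which missed the threshold (log2 fold change 0.68, limma adjusted p = 0.106), while Srf, Vcl and Actg1 had log2 fold changes between -0.23 and 0.054.

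**Figure D4:**
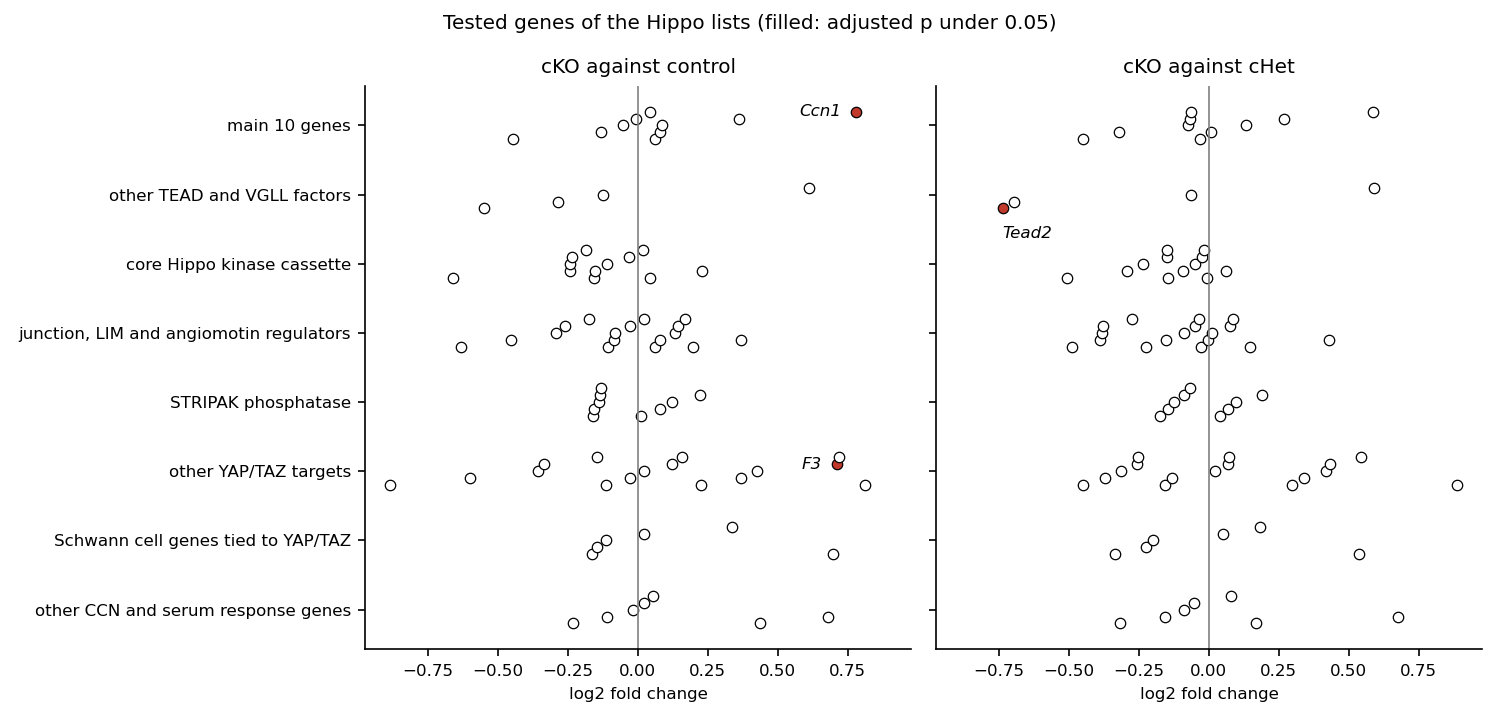
Log2 fold change (horizontal axes) of every tested gene of the 10 and of the 7 further lists for cKO against control and cKO against cHet, with 1 point per gene (vertical offsets within a list only separate points). Filled points passed an adjusted p of 0.05 by limma: Ccn1 at 0.78 and F3 at 0.71 on the left, Tead2 at -0.74 on the right.

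Likeness to other genes was measured as the mean absolute difference of log2 values over the 9 nerves after each gene was centred on its mean. The 3 tested genes most like Ccn1 were Erbin at 0.077, Pter at 0.078 and Uggt2 at 0.084, where the median over all genes was 0.36. Their log2 fold changes in the cKO against the control, 0.60, 0.67 and 0.83, follow from this choice over the same nerves and are given as a description. The 3 most like Wwtr1 were Sepsecs at 0.025, Nudcd3 at 0.032 and Gusb at 0.041, where the median was 0.19. Erbin encodes a scaffold that binds the receptor ErbB2, and Gusb a lysosomal glucuronidase.

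Annotation sets limits on some of these values. Yap1 shares exonic bases with Gm20416 and Ccn2 with Gm15270, both on the opposite strand and absent from the symbols of the table, so that reads of these partners could not be set apart here. Lats2 shares exonic bases with Gm49361 on the same strand, which had a mean of 0.018. The other 7 genes share exonic bases with no annotated gene.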

How the data were processed

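RNA from the sciatic nerves of 9 mice was made into libraries with the Illumina TruSeq RNA kit and sequenced by the authors. In the deposited table each gene has a signal per library, given in normalized TPM. Per the labels, kallisto 0.44.0 and sleuth 0.30.0 were used with GRCm38. For the annotation behind these values, the strandedness and the scaling between libraries, nothing is given in the sources used here, since the Ensembl release in the study's methods is stated for a separate HISAT2 alignment. The values sum to between 934932 and 1158094 per library, so they are not plain TPM, and the depth and counting error behind a value are unknown.

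Groups follow the sample titles. Symbols were matched by Ensembl identifier for 35471 genes (650 had none). Genes with a mean of 1 or more (15014) were tested as log2(value + 0.5), a scale that understates fold changes of low genes. All 9 libraries entered one limma model (limma 3.58.1, R 4.3.3; lmFit, contrasts.fit, eBayes with trend), Benjamini-Hochberg adjustment was over all tested genes, and the threshold was 0.05. The model was tested on simulated data. The 10 genes, lists, markers and alternatives were chosen with earlier results of these data known. Named are all 10 genes, of each other list the called genes or else up to 4 genes by smallest p in a comparison, and the 3 genes most like Wwtr1 and Ccn1. Pmp22, Ccn3, Ankrd1, Cd37 and single genes of the immediate early, perineurial, endothelial, and pericyte and smooth muscle marker sets were named after their values were seen. A few genes of the Schwann cell lists are not reported here and were left out of those lists. Coordinates came from GENCODE M21 (GRCm38) and promoters from RefSeq (GRCm38.p6).

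Alternatives were the pseudocount (0.1 or 1), the filter (none, or a mean of 5 or more), the scaling (equal library sums, median of ratios, quantiles), a fit of the 2 compared groups alone, a sex term, limma without trend or with robust moderation, a block by sets of neighbouring mouse numbers, groups by the genotype field, and omission of libraries with discordant labels, of those high in neuron, muscle or adipocyte markers, and of each library in turn.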

Additional observations from a re-analysis of the deposited data

How the results depend on the processing

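Depth behind a value is not known, since TPM keep no read counts, and 3 mice a group leave small differences undetectable. Ccn1 stood higher in the cKO than in the control in 26 of 26 alternatives (log2 fold change 0.58 to 0.94) and was called in 16 of them, and F3 likewise in 26 of 26 and 17. The 1 gene called among the 10 in this comparison became 0 with only the 2 compared groups in the fit, with groups from the genotype field, without the 3 libraries whose labels disagree, and without the 3 high in neuron markers, the 2 high in muscle markers or the 2 high in adipocyte markers, and it was 0 or 1 without any single library. Adjusted p of Ccn1 from limma ran between 0.0145 and 0.997 over the alternatives. The alternatives on muscle and adipocyte markers were chosen after seeing the data. Without the libraries of discordant labels and with the genotype field a single cKO nerve is left, which is assumed to vary like the other groups.

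Over all genes the 235 calls for cKO against control became 50, 2, 0, 16, 23 and 19 under these 6 alternatives in the same order, and 50 and 179 were the lowest and highest counts without a single library. For cKO against cHet the 256 calls became 168 with no filter on low values, 0 with the genotype field, 0 without the discordant labels, 14 without the neuron-high libraries and 40 without the muscle-high libraries, and 55 and 274 were the lowest and highest without a single library. Of the 10 genes, 1 (Ccn1) was called in this comparison instead of 0 with a minimum mean of 5, with sex as a covariate and with robust moderation. Tead2, called there, kept its call in 10 of 26 alternatives, and Vgll3, not called there, was called in 5 of 26, with adjusted p from limma between 0.0233 and 1. For cHet against control 0 calls became 2 with no filter and 1 without the mean-variance trend. The cause of these changes was not tested.

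Of the log2 fold changes of single genes, 51 alternative values in 18 of 53 such results had the other sign, in each case of a comparison in which that gene was not called. With libraries rescaled to the same sum they were Yap1 -0.0031 and Ajuba -0.023 for cKO against control and Yap1 -0.13 and Ccn2 -0.0055 for cKO against cHet. With quantile normalization they were Ccn2 0.066 for cKO against control and Yap1 -0.056 for cKO against cHet. With groups from the genotype field they were Ajuba -0.19 for cKO against control, Yap1 -0.035, Tead1 0.046, Ccn2 -0.21, Nf2 0.15, Amot 0.26 and Wtip -0.037 for cKO against cHet and Amotl2 -0.021 and Tead2 -0.045 for cHet against control. Without the 3 libraries whose labels disagree they were Ajuba -0.20 for cKO against control and Yap1 -0.054, Nf2 0.027 and Amot 0.011 for cKO against cHet. Without the 3 libraries high in neuron markers they were Tead1 -0.058 and Ccn2 0.016 for cKO against control and Yap1 -0.039 and Ajuba 0.037 for cKO against cHet. Without the 2 libraries high in muscle markers they were Wwtr1 0.016 and Ccn2 0.13 for cKO against control, Ajuba 0.088 for cKO against cHet and Amotl2 -0.070 for cHet against control. Without the 2 libraries high in adipocyte markers they were Ccn2 0.26 for cKO against control and Wwtr1 -0.010 and Ccn2 0.13 for cHet against control. Without a single library, 21 values changed sign. The genes with such a value follow, with their lowest and highest value over all single omissions, whether or not the sign changed. For cKO against control they were -0.064 and 0.16 for Ajuba, -0.14 and 0.15 for Ccn2 and -0.0011 and 0.16 for Tead1. For cKO against cHet they were -0.14 and 0.088 for Ajuba, -0.088 and 0.35 for Ccn2, -0.19 and 0.030 for Tead1, -0.11 and 0.010 for Wwtr1 and -0.044 and 0.061 for Yap1. For cHet against control they were -0.094 and 0.17 for Amotl2, -0.35 and 0.084 for Ccn2, -0.00026 and 0.23 for Lats2 and -0.062 and 0.062 for Wwtr1. 

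No mouse number is shared between groups and the labels name no litters or sets. The study's methods state in general that age-matched mice of each genotype, from 1 litter or 2 litters born closest together, were analysed as sets. Which of these mice formed a set is not given. A replicate block by sets of 1 mouse per group with neighbouring numbers and the same sex, chosen after seeing the data, left 120 calls for cKO against control, 124 for cKO against cHet and 0 for cHet against control, with Ccn1 and F3 called against the control (adjusted p 0.0340 and 0.0444 from limma) and Tead2 not called against the cHet (0.1003). Across genes, deviations from the group means correlated at -0.53 to 0.38 in the 9 pairs within a set, 2 of them over 0.1, and at -0.45 to 0.51 in the 18 pairs between sets, 8 of them over 0.1. Such deviations sum to 0 within each group, so these correlations cannot decide whether the mice were matched.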
